A study of Bos taurus with 4 samples.

Results

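The minor piRNA clusters described here are 290 regions of the bovine genome that are at least 10 kb long and are not among 10 abundant clusters left out by name. The deposited annotation named 1159 cluster regions, which were merged wherever they overlapped by at least 1 bp into 956 loci. Of these, 638 autosomal loci were shorter than 10 kb, 18 lay on chromosome X and 10 were the clusters left out, which together held 64.5% ± 0.530 of the listed reads in the inputs and 69.2% ± 0.228 in the IPs described below (SD, n = 2). The rule uses length and position, and the lower levels of the 290 loci follow from the names it leaves out, although the left-out cluster of chromosome 19, at a mean of 2056 RPM, lay below the highest of them. The counts are of small RNA from germinal vesicle oocytes of cattle, in which the oocyte rests in meiotic prophase. There were 2 input libraries, made without an antibody, and 2 libraries of RNA recovered with an antibody against TDRKH (here the TDRKH IP), all from the same labelled cell type with no other treatment or genotype given. Whether replicates are separate pools of oocytes is not in the labels, so p-values measure a spread that may be technical. No IP with a control antibody was analysed here, so RNA bound by TDRKH and background of the IP cannot be told apart.

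PIWI-interacting RNAs (piRNAs) are small RNAs that guide PIWI proteins to transposons and other transcripts. Most are cut from long transcripts of genomic clusters into pieces that usually begin with U, written T in the sequencing data. TDRKH is a tudor domain protein of the mitochondrial surface that binds PIWI proteins and takes part in trimming piRNA 3′ ends, and PIWIL3 is a PIWI protein of oocytes named in the title of the study. Where 2 PIWI proteins cut each other's targets, the resulting piRNAs pair over their first 10 bases, so that a first T on one strand faces an A at base 10 on the other. The comparison of IP with input asks which piRNAs of the oocyte are recovered with TDRKH.

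A few sequences show what these loci hold, and they are printed as listed, 5′ to 3′, with the first base and base 10 in capitals. The first is the most abundant sequence found at a single locus in the locus with the most reads, and the next 2 are the sequences that make up most of the single-locus reads of chr15:15793005-15806951 and the leading one of chr2:92683022-92703989.
chr10:16615000-16701012: TgggattagTgctcttacaagaagaa
chr15:15793005-15806951: TctttgcgaCcctgtggactatagct
chr2:92683022-92703989: TtctcaaggAggaagaaaggacaaaaaa
The next pair carries a first T on one side and an A at base 10 on the other, and the first 10 bases of each are the reverse complement of the other's. It is the pair with the most reads of this kind.
shared T partner: TctttgtgaCcccatggactgtagcc
shared A partner: GtcacaaagAgtcagacatgactgagt
The third set is a pair of the same form, both of whose sequences are found at chr25:20927069-20947022 alone. It was picked after its values were seen. The sequence under it is the leading single-locus sequence of chr24:43000041-43109013, which differs from the T partner above it at 2 of 26 bases.
chr25 A partner: CcctataggAatgcaactttatctaaaa
chr25 T partner: TcctataggGcaaaagtgtggtgggc
chr24 sequence: TcctataggGcaaaggtgaggtgggc

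The 4 libraries held 1079364 and 1354003 listed reads in the inputs and 11138905 and 11060320 in the IPs, all of 18 to 36 nt. Values are reads per 1000000 listed reads (RPM), and 3 reads correspond to 2.78 and 2.22 RPM in the inputs and to 0.269 and 0.271 RPM in the IPs. The inputs were therefore the limit on precision. Replicates differed by more than counting error (chi-square per degree of freedom over loci 2.67 between inputs and 8.57 between IPs). The summed level of 5 microRNAs of cumulus and granulosa cells was 449 and 505 RPM in the inputs and 6.28 and 12.7 RPM in the IPs, and miR-122, a liver microRNA, was at 435 and 335 RPM and at 1.71 and 2.35 RPM. The 4 leukocyte microRNAs summed to 60.7 and 49.5 RPM and to 0.628 and 0.316 RPM, with miR-223 at 0 throughout. The 2 epithelial ones summed to 58.4 and 59.1 RPM and to 0.628 and 0.181 RPM, and the 3 muscle ones to 0.926 and 7.39 RPM and to 1.26 and 1.899 RPM, with miR-133a at 0. Both erythroid microRNAs were at 0 in all libraries. The sums for cumulus and granulosa cells, liver, leukocytes and epithelium were thus higher in both inputs than in both IPs, and those for muscle overlapped. Reads with any microRNA name numbered 19127 and 24591 in the inputs and 6712 and 8125 in the deeper IPs, so the lower level was not limited to these lists. The part of these differences in the changes below was not tested.

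The loci ranged in length from 10002 to 111894 bp, with a median of 14006 bp, and covered 6019.66 kb. Of the 290, 209 matched a single annotated name, 60 joined 2 names and 21 joined 3 or more. There were 85 loci of at least 20 kb and 20 of at least 50 kb. The loci just inside the length threshold were chr7:20694021-20704022 (10002 bp, mean 234 RPM over the 4 libraries) and chr19:18844001-18854007 (10007 bp, 68.2 RPM). Those just outside were chr17:36871018-36881014 (9997 bp, 482 RPM) and chr2:136247020-136257014 (9995 bp, 146 RPM). All 29 autosomes carried at least 1 locus. Chromosome 10 held 25, chromosomes 13 and 8 held 21 each and chromosome 25 held 20, while chromosomes 4, 9 and 20 held 2 each. Of the loci, 114 lay within 100 kb of another locus of the group and 10 within 100 kb of a left-out cluster. No genome of a known build was used, so no gene annotation is given for them. Positions are those of the deposited names, in a build not given in the sources used here.

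Reads were spread over many of these loci. The mean level of the 4 libraries ran from 3.24 to 2833 RPM, with a median of 207.9 RPM and quartiles of 89.8 and 519 RPM. The 10 loci with the most reads held 17.1% of the reads of the group, and 48 loci were needed to reach 50% of them. Levels of at least 1000 RPM were found at 22 loci, and 81 were under 100 RPM. Per length, the median was 11.6 RPM per kb, with a range of 0.193 to 113 RPM per kb. This median was close to that of the autosomal loci under 10 kb, 10.8 RPM per kb, and below that of the left-out clusters, 144 RPM per kb, as the rule fixes. Longer loci held more reads (Spearman's rho 0.49 across the 290 loci, which share libraries and many reads). The shortest 97 loci had a median of 9.85 RPM per kb and the longest 97 one of 15.9 RPM per kb.

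The locus with the most reads was chr10:16615000-16701012, 86013 bp long, at 2292 and 2332 RPM in the inputs and 3295 and 3414 RPM in the IPs. Both IPs were above both inputs, with a log2 change of 0.54 ± 0.050 (SE, edgeR's quasi-likelihood test, Benjamini-Hochberg adjusted over 935 loci, adjusted p = 5.25e-05, n = 2 per group as in all such tests here). It was part of a run of 4 such loci on chromosome 10. Its neighbour chr10:16529010-16613987, the third by reads, stood at 1630 and 1659 RPM against 2262 and 2307 RPM (log2 change 0.47 ± 0.051, adjusted p = 6.92e-05). The second by reads, chr16:74968001-74992002, stood at 1703 and 1780 RPM against 2339 and 2233 RPM (0.39 ± 0.055, adjusted p = 0.000221). All 3 were higher in each IP than in either input.

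Of the next 4 loci by reads, 3 rose and 1 did not pass the test. The locus chr24:43000041-43109013, 108973 bp long, was at 1631 and 1632 RPM in the inputs and 2057 and 2037 RPM in the IPs (log2 change 0.33 ± 0.051, adjusted p = 0.000395). On chromosome 8, chr8:81512069-81532019 was at 1581 and 1524 RPM against 1935 and 1960 RPM (0.33 ± 0.053, adjusted p = 0.000465). By contrast, chr2:92683022-92703989 had overlapping groups, at 1665 and 1715 RPM against 1728 and 1698 RPM, with a log2 change of 0.019 ± 0.052 (adjusted p = 0.758). The locus chr23:14145007-14229021 lies 7002 bp from a left-out cluster and was at 1374 and 1468 RPM against 1924 and 1930 RPM (0.44 ± 0.056, adjusted p = 0.000161). Both groups of the latter were far apart relative to their spread.

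The last 3 of the 10 differed in how far their groups lay apart. At chr11:5411072-5436959 the inputs held 1248 and 1326 RPM and the IPs 1914 and 1853 RPM, a log2 change of 0.55 ± 0.057 (adjusted p = 6.22e-05). At chr15:15793005-15806951 the inputs were uneven, 1361 and 1574 RPM, and met the IPs at 1630 and 1573 RPM (0.12 ± 0.070, adjusted p = 0.136). At chr8:17572022-17640997 the values were 1430 and 1398 RPM against 1652 and 1525 RPM (0.17 ± 0.059, adjusted p = 0.0273). This last call did not hold when scaled by piRNA cluster reads (0.035, adjusted p = 0.65), without input 2 (0.15, adjusted p = 0.0924) or without TDRKH IP 1 (0.11, adjusted p = 0.257). Scaled with TMM factors or DESeq2's own size factors, none of the risen loci among these 10 passed. With TMM factors chr11:5411072-5436959 was at 0.18 (adjusted p = 0.0577) and chr10:16615000-16701012 at 0.17 (adjusted p = 0.0675), while chr2:92683022-92703989 fell (-0.34, adjusted p = 0.00773). The plot of the 10 loci shows the 4 libraries of each side by side.

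**Figure D1:**
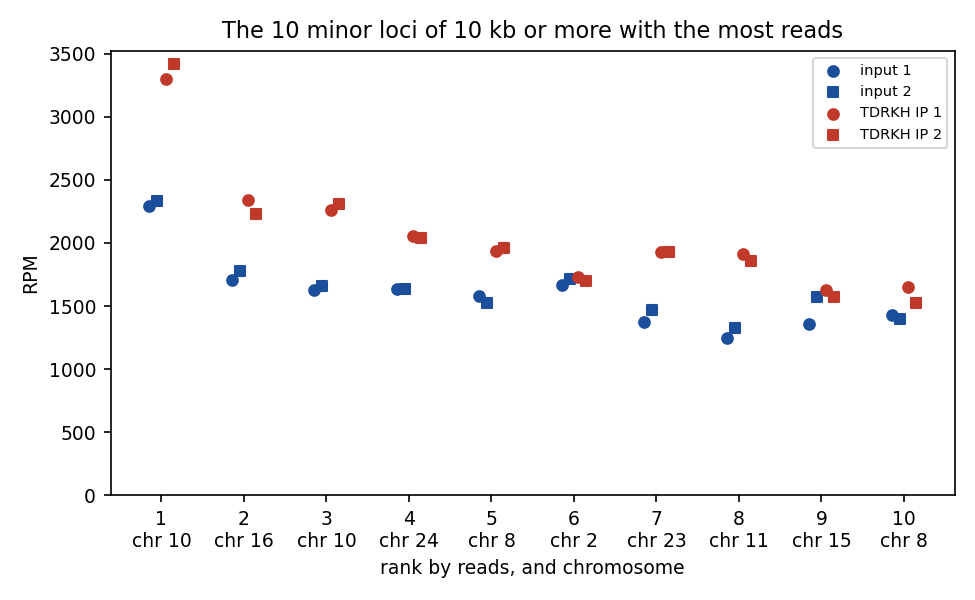
Level in RPM of the 10 loci with the most reads, in order of reads, each labelled by rank and chromosome, with 1 point per library (blue input, red TDRKH IP). Both IPs stand above both inputs except at the sixth and ninth loci, on chromosomes 2 and 15, where the groups overlap.

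As a pool, the 290 loci took up a larger share of the reads in the IPs than in the inputs. They held 9.37% and 9.57% of listed reads in the inputs and 12.1% and 11.999% in the IPs, means of 9.47% ± 0.139 and 12.1% ± 0.105 (SD, n = 2). The groups did not overlap, and the exact two-sided permutation test gave p = 0.33, the smallest that 2 against 2 libraries allow. Of the reads of all piRNA clusters they held 10.7% ± 0.239 in the inputs and 12.5% ± 0.102 in the IPs. Relative to the reads of the left-out clusters they were 0.25 higher on the log2 scale in the IPs, and relative to those of the shorter loci 0.20 higher, with no overlap of the groups in either ratio (exact permutation p = 0.33 for each).

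Single loci moved in the same direction for the most part, at about the rate of all piRNA cluster loci. All 290 loci passed the filter on low counts and were tested. Scaled by listed reads, 211 loci rose and 7 fell, and the median log2 change was 0.34. Rises made up 66.2% and falls 4.06% of all 935 loci tested, whose median was 0.36. The median of the autosomal loci under 10 kb was 0.37, slightly above that of the 290 loci. The log2 ratio of the pooled reads ran the other way, at 0.15 for those shorter loci and 0.35 for the 290. Both IPs were above both inputs at 239 of the 290 loci and below them at 15, and the groups overlapped at 36, against 77.8% above and 7.81% below among all loci tested. The changes were small: the middle of the distribution ran from 0.21 to 0.49 between the quartiles, and 2 of the loci past the threshold changed by at least 2-fold. A further locus, chr18:53169021-53185791, had a log2 change of -1.51 at 6.49 and 3.32 RPM in the inputs and 1.24 and 1.899 RPM in the IPs, and did not pass (adjusted p = 0.0527); it is named after its values were seen. Scaled by the reads of all piRNA clusters, which takes out the larger share of clusters in the IPs, 141 rose and 12 fell and the median was 0.21, where 43.1% of all loci rose and 5.53% fell. TMM factors moved the median of all loci to 0.0011 and that of the 290 to -0.018, with 15 of the 290 risen and 15 fallen, so the direction of many loci depends on this scaling. TMM factors and DESeq2's own size factors are set so that the typical locus changes little. They therefore cannot show whether a rise common to most cluster loci is present.

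**Figure D2:**
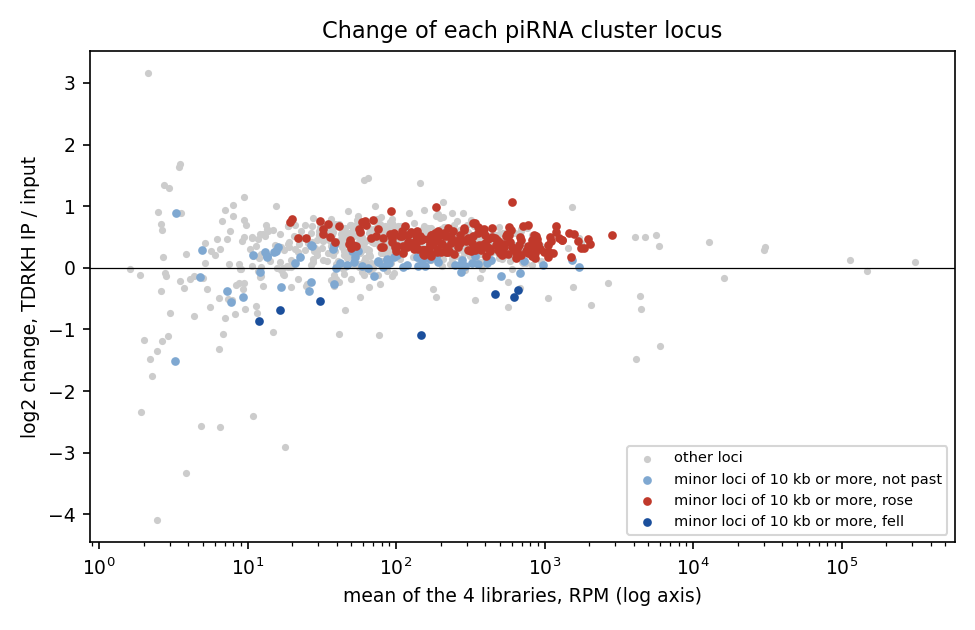
Log2 change of each locus from input to TDRKH IP against its mean level in RPM on a log axis, with listed reads as library size. Red and dark blue points are the 211 minor loci of 10 kb or more that rose and the 7 that fell, light blue those not past an adjusted p of 0.05, and grey points all other loci, in whose range the minor loci lie.

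The largest rise among the 290 was at chr20:7555001-7567022, 12022 bp long. It was at 339 and 438 RPM in the inputs and 770 and 881 RPM in the IPs, a log2 change of 1.07 ± 0.11 (adjusted p = 5.66e-05). Of its reads, 73.3% were listed at this locus alone, and these gave a log2 change of 1.33 ± 0.15 (adjusted p = 3.63e-06). The second rise, at chr13:66744005-66758965, went from 104 and 142 RPM to 247 and 249 RPM (0.99 ± 0.11, adjusted p = 6.92e-05). Its reads carried a mismatch to the locus almost throughout, with 2.82% of the input reads and 2.13% of the IP reads listed without one. On names without a mismatch its call did not hold (0.61, adjusted p = 0.0861).

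The other large rises were at loci with fewer reads. At chr3:50436038-50446465 the level was 67.6 and 61.3 RPM against 113 and 131 RPM (0.92 ± 0.13, adjusted p = 0.000264). Its reads were mostly short in both groups, with 83.2% of the input reads and 86.2% of the IP reads at 18 to 22 nt. On names without a mismatch its call did not hold (0.24, adjusted p = 0.64). At chr22:51044821-51055883 the values were 11.1 and 17.7 RPM against 26.5 and 24.5 RPM (0.79 ± 0.22, adjusted p = 0.00898), from 36 input reads, and the call did not hold without input 1 (0.53, adjusted p = 0.0929). At chr25:28792054-28804717 they were 47.6 and 55.6 RPM against 90.1 and 87.5 RPM (0.78 ± 0.11, adjusted p = 0.000279), and the reads listed there alone ran the other way (-0.54 ± 0.49, adjusted p = 0.463).

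The largest fall past the threshold was at chr10:16741000-16751016, the last of the run of 4 loci on chromosome 10 that also holds the locus with the most reads. It was at 206 and 194 RPM in the inputs and 92.8 and 95.0 RPM in the IPs (log2 change -1.09 ± 0.077, adjusted p = 2.11e-05). Its input reads were mostly short: 81.6% of the input reads were of 18 to 22 nt, against 22.5% of the IP reads. Reads of at least 24 nt stood at 30.7 and 27.3 RPM in the inputs and at 65.7 and 62.7 RPM in the IPs. With reads of 24 to 32 nt only, the change of the locus was 1.15 (adjusted p = 0.000391), in the opposite direction. Among its single-locus sequences that fell most was TtcttgcggCgggagaaca, of 19 nt and listed with a mismatch, with 14 and 24 reads in the inputs and 0 in both IPs.

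The other falls were smaller, and most of them turned with the mismatch rule. The annotation notes when a read differs from the genome at 1 base, and keeping only names without such a note made 6 of the 7 fallen loci positive. At chr13:11350034-11373704 the level was 788 and 661 RPM in the inputs and 525 and 516 RPM in the IPs (-0.47 ± 0.077, adjusted p = 0.000487). Without mismatched names its change was 0.23 (adjusted p = 0.0961), while with single-locus reads only it was -1.29 ± 0.30 (adjusted p = 0.00454). At chr25:20655-32973 the values were 46.0 and 27.6 RPM against 25.4 and 24.2 RPM (-0.53 ± 0.20, adjusted p = 0.0354), 0.88 without mismatched names (adjusted p = 0.0218) and not past the threshold without input 1 (-0.14, adjusted p = 0.634).

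The remaining 2 named falls rested on few reads. At chr14:4167520-4178005 the level was 12.04 and 18.5 RPM against 8.27 and 8.95 RPM (-0.86 ± 0.26, adjusted p = 0.0149), from 38 input reads, and it was the fallen locus that stayed negative without mismatched names (-0.68, adjusted p = 0.0451). That call did not hold without input 2 (-0.48, adjusted p = 0.32) or without TDRKH IP 1 (-0.80, adjusted p = 0.06). At chr3:94037366-94052852 the inputs were at 26.4 and 14.8 RPM and the IPs at 13.1 and 11.5 RPM (-0.68 ± 0.26, adjusted p = 0.0378), and the call did not hold without input 1 (-0.26, adjusted p = 0.508) or without TDRKH IP 2 (-0.60, adjusted p = 0.0853). The 2 fallen loci outside the naming rule, which are named after their values were seen, were chr10:80819038-80829998 (-0.42, adjusted p = 0.000355) and chr13:11230014-11247655 (-0.36, adjusted p = 0.000995).

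The change varied little with the length of the locus. The 3 longest loci were chr23:7898020-8009913, chr17:67127001-67238016 and chr24:43000041-43109013. The first stood at 1124 and 1234 RPM in the inputs and 1695 and 1805 RPM in the IPs (0.57 ± 0.064, adjusted p = 8e-05). The second stood at 923 and 999 RPM against 1413 and 1455 RPM (0.58 ± 0.060, adjusted p = 6.66e-05). In both, each IP was above each input. Over the shortest 97, the middle 96 and the longest 97 loci, the median change was 0.33, 0.34 and 0.37. The number that rose was 61 of 97, 67 of 96 and 83 of 97, in the same order as the read level of the loci.

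Most reads of these loci cannot be placed. A sequence that matches several loci was divided equally among them, and reads listed at 1 locus alone made up 27.2% ± 0.552 of the reads of the group in the inputs and 26.5% ± 0.755 in the IPs (SD, n = 2). For the left-out clusters the same share was 93.4% ± 0.0497 and 93.5% ± 0.227, and for autosomal loci under 10 kb 38.0% ± 2.29 and 32.4% ± 0.517. Among the 290 loci the share ran from 0.315% to 99.8% with a median of 15.6%. At 108 loci it was under 10%, and at 41 over 50%. At chr8:17572022-17640997, among the 10 loci with the most reads, 1.83% of the reads were listed there alone, and at chr15:15793005-15806951 80.6% were.

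Most of the shared reads also matched a left-out cluster. How many of them also matched autosomal loci under 10 kb is not given here. Reads of the group that also matched a left-out cluster stood at 53208 ± 1381 RPM in the inputs and 68651 ± 1310 RPM in the IPs, against 15718 ± 153 and 20061 ± 371 RPM for shared reads with no such match. Reads shared only among the 290 loci themselves came to 4087 ± 270 and 5155 ± 132 RPM. Of all reads that matched chr10:16615000-16701012, here counted whole and not divided among loci, 68.9% also matched the left-out cluster of chromosome 23 and 65.5% the one of chromosome 6 with the larger coordinates. The same 2 clusters led the partners of chr16:74968001-74992002 (82.0% and 79.8%) and chr24:43000041-43109013 (77.5% and 74.8%).

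Single-locus and shared reads of the pool both took larger shares in the IPs, but most loci did not pass the test on their single-locus reads. The single-locus reads of the group summed to 25853 and 25649 RPM in the inputs and 31571 and 32468 RPM in the IPs, a log2 ratio of 0.31. The shared reads summed to 67841 and 70010 RPM against 89901 and 87525 RPM, a log2 ratio of 0.36. In both sums each IP was above each input (exact permutation p = 0.33 for each). Reads that matched over 100 loci had a log2 ratio of 0.70 and those of 2 to 5 loci one of 0.20. Tested on single-locus reads, 287 loci passed the filter, of which 50 rose and 23 fell (median 0.13). In the same test 15.6% of all 887 loci rose and 8.12% fell (median 0.13). When these reads were also scaled by piRNA cluster reads, 33 of the 287 rose and 31 fell (median -0.0036).

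All 50 loci that rose on single-locus reads also rose with all reads, but most of those that rose with all reads did not pass on single-locus reads. Of the 211 that rose with all reads, 50 also rose with single-locus reads, 7 fell, 151 did not pass and 3 were not tested. The single-locus changes were more spread, from -2.56 to 1.73, against -1.51 to 1.07 with all reads. The locus chr2:92683022-92703989, whose groups overlapped with all reads, had single-locus reads at 770 and 824 RPM in the inputs and 616 and 590 RPM in the IPs (-0.40 ± 0.10, adjusted p = 0.0078). Its leading sequence, printed above, made up 28.5% of these. At chr24:43000041-43109013 the single-locus reads were at 395 and 334 RPM against 391 and 363 RPM, with overlapping groups (0.053 ± 0.12, adjusted p = 0.808). At chr10:16615000-16701012 they were at 1491 and 1512 RPM against 2174 and 2340 RPM (0.59 ± 0.075, adjusted p = 2.42e-05), close to the change with all reads. Ordered by share of single-locus reads, the lowest 97, the middle 96 and the highest 97 loci had median changes of 0.34, 0.36 and 0.34 with all reads.

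**Figure D3:**
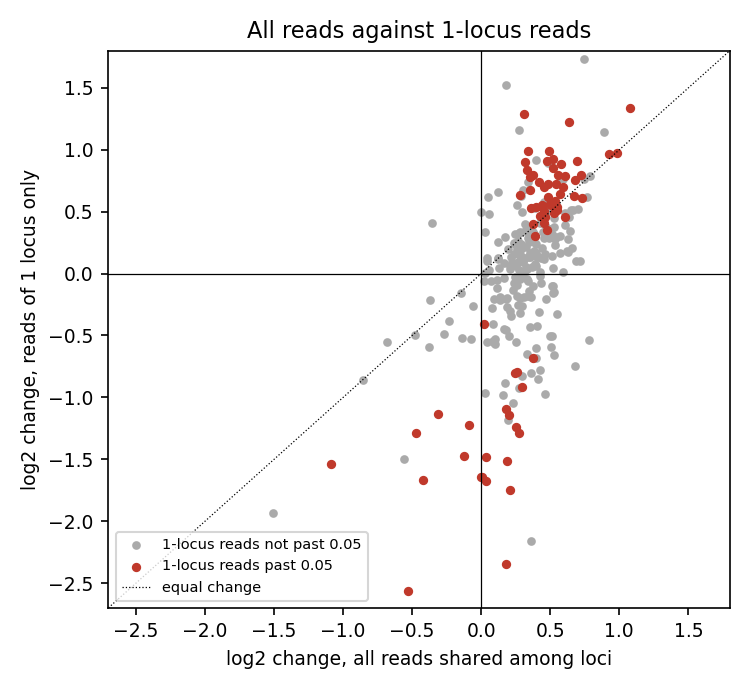
Log2 change of 287 minor loci of 10 kb or more, with all reads on the x axis and with reads listed at 1 locus only on the y axis, and the dotted line marking equal change. Points of the loci past an adjusted p of 0.05 on single-locus reads (50 rose and 23 fell) are red; the changes along the y axis are spread more widely, from -2.56 to 1.73.

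Reads listed with and without a mismatch changed by different amounts. Without a mismatch were 29.7% and 33.3% of the reads of the group in the inputs and 39.2% and 39.4% in the IPs. Among single-locus reads these shares were 41.8% and 49.1% in the inputs and 62.2% and 62.0% in the IPs. The inputs differed from each other by more than the IPs did. Single-locus reads without a mismatch summed to 11703 ± 1270 RPM in the inputs and 19882 ± 337 RPM in the IPs, a log2 ratio of 0.76, and those with a mismatch to 14048 ± 1414 and 12138 ± 297 RPM, one of -0.21. Shared reads had log2 ratios of 0.60 without and 0.27 with a mismatch. The same shift was seen in the left-out clusters, whose single-locus reads without a mismatch made up 63.5% ± 6.16 of the inputs and 86.1% ± 0.332 of the IPs. On names without a mismatch, 232 of 286 loci rose and 3 fell (median 0.65, and 0.64 over all 905 loci tested). Depth and group go together in these libraries, and the part of depth in this shift was not tested.

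The reads of these loci had the length and first base of piRNAs in both groups. The commonest length was 26 nt, with 26.9% and 26.6% of the reads in the inputs and 25.6% and 24.7% in the IPs, and 75.0% ± 0.284 and 73.5% ± 0.814 were of 24 to 28 nt. The mean length was 25.21 ± 0.0342 nt in the inputs and 25.08 ± 0.0809 nt in the IPs (exact permutation p = 0.33). For the left-out clusters it was 25.24 ± 0.0028 and 25.10 ± 0.0628 nt. The shared reads held more short molecules in the IPs, with 4.50% ± 0.0108 at 22 nt in the inputs and 5.21% ± 0.222 in the IPs. Single-locus reads of 22 nt made up 2.82% ± 0.338 and 3.06% ± 0.107, a difference within the spread of the inputs.

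**Figure D4:**
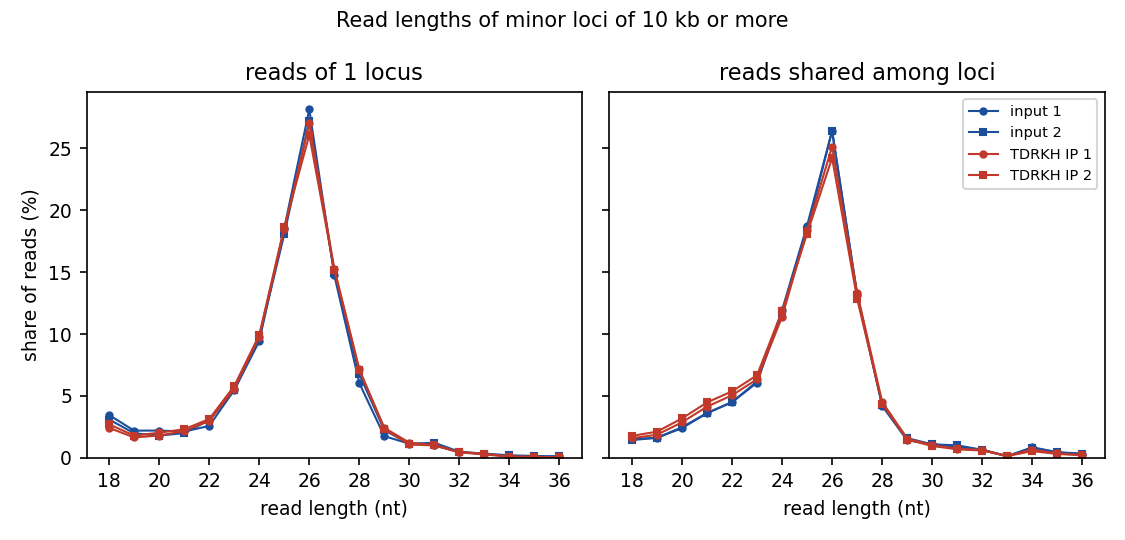
Share of reads (%) at each read length (nt) in the 290 loci, for reads listed at 1 locus (left) and reads shared among loci (right), with 1 line per library (blue input, red TDRKH IP). All 4 libraries peak at 26 nt in both panels; at 22 nt the shared reads of the IPs lie above those of the inputs.

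The first base was T in 86.6% and 87.8% of the reads of the group in the inputs and in 88.6% and 87.8% in the IPs. The highest input and the lowest IP were thus at nearly the same share. In single-locus reads the groups were further apart, with 84.2% and 85.7% in the inputs and 89.3% and 88.7% in the IPs, while in shared reads they overlapped at 88.1% ± 0.750 and 87.9% ± 0.576. Over the 215 loci with at least 200 input reads, the share ran from 40.9% to 97.8% with a median of 88.8%, and it exceeded 75% at 205 of them. Counting each distinct sequence once gave 80.6% ± 0.0787 in the inputs and 77.1% ± 0.652 in the IPs, a difference in the opposite direction.

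Counted over all reads, an A at base 10 was commoner in these loci than in the left-out clusters. It was found in 48.9% ± 0.614 of the reads of the group in the inputs and 49.0% ± 0.413 in the IPs, against 40.0% ± 0.285 and 39.7% ± 0.422 in the left-out clusters. The difference was 9.13 and 8.67 percentage points in the inputs and 9.33 and 9.34 in the IPs, so it was of like size in every library. It lay in the shared reads, which had an A at base 10 in 52.7% ± 0.733 and 52.1% ± 0.533. Single-locus reads had it in 38.9% ± 0.573 and 40.4% ± 0.252. In the inputs, 53208 of the 68926 RPM of shared reads also matched a left-out cluster, while 93.4% of the reads of those clusters were single-locus. An A at base 10 was not counted in the shared reads of the left-out clusters. The part of this mix of reads in the difference was not tested. In autosomal loci under 10 kb it was found in 39.6% ± 0.638 of the input reads and 45.3% ± 0.358 of the IP reads. The lead of the group over those shorter loci was thus smaller in the IPs, 3.70 ± 0.0548 percentage points against 9.33 ± 1.25 in the inputs. Among reads with a first T, A was more frequent at base 10, 49.3% ± 0.685 of the input reads, than at any other base from 2 to 15, with base 9 next at 45.5% ± 0.753 and base 11 at 11.8% ± 0.421. Among reads that did not begin with T, base 10 was A in 46.5% ± 0.312 of the input reads and 48.6% ± 1.08 of the IP reads. In the IPs it was exceeded there by base 8, at 53.3% ± 0.640, against 44.2% ± 0.548 in the inputs.

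Some first 10 bases recurred in many reads of the group. The commonest over the 4 libraries were TctttgtgaC, with which 5.54% ± 0.757 of the reads of the group began in the inputs and 5.95% ± 0.110 in the IPs. Next came TctttgcgaC, the commoner of these in both inputs, with 6.02% ± 0.322 and 5.41% ± 0.281, and TtttctggaA with 3.16% ± 0.360 and 2.41% ± 0.0938. In the left-out clusters the same 3 beginnings made up 0.443% ± 0.0419, 0.342% ± 0.0169 and 0.167% ± 0.0175 of the input reads. The beginning complementary to the first, GtcacaaagA, was carried by 0.660% ± 0.0437 of the reads in the inputs and 1.17% ± 0.0373 in the IPs, with no overlap. These beginnings were singled out for their read numbers, and the comparison is a description.

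Of the shared pair, the A partner passed the test and the T partner did not. The T partner was listed at 104 loci, 48 of them in the group and 8 among the left-out clusters, and stood at 913 and 1227 RPM in the inputs and 1353 and 1192 RPM in the IPs, with overlapping groups (log2 change 0.25 ± 0.21, adjusted p = 0.302). The A partner was listed at 49 loci, 18 of them in the group, and stood at 144 and 109 RPM in the inputs and 310 and 290 RPM in the IPs. Both IPs exceeded both inputs, and the log2 change was 1.26 ± 0.24 (edgeR, adjusted over 11786 sequences, adjusted p = 7.02e-05). The pair shared 6 loci of the group. These calls depended on the scaling and on 1 library. With TMM factors the A partner was at 0.56 (adjusted p = 0.0679) and the T partner at -0.42 (adjusted p = 0.12), and with DESeq2's own size factors the A partner was at 0.58 (adjusted p = 0.0684). Without input 2 the T partner passed (0.48, adjusted p = 0.0305).

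The pair found at chr25:20927069-20947022 alone had the same form at lower levels. Its A partner was at 1.85 and 3.69 RPM in the inputs, from 2 and 5 reads, and at 11.2 and 12.7 RPM in the IPs (2.05 ± 0.55, adjusted p = 0.00255). This sequence met the filter of at least 10 RPM in 2 libraries only through the IPs, where it is high. A rise was thus built into its entry, and its p-values cannot serve as evidence of one. The T partner of the pair was at 20.4 and 29.5 RPM against 21.8 and 17.4 RPM, with overlapping groups (-0.37 ± 0.34, adjusted p = 0.348). With TMM factors the A partner did not pass (1.38, adjusted p = 0.0764) and the T partner fell (-1.03, adjusted p = 0.0186), and with DESeq2's own size factors neither passed (adjusted p = 0.302 and 0.0941). The difference between partners was not tested in either pair. The near-identical chr24 sequence was at 52.8 and 48.7 RPM in the inputs and 43.1 and 41.5 RPM in the IPs (-0.26 ± 0.29, adjusted p = 0.423), and it fell with TMM factors (-0.94, adjusted p = 0.00863).

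Reads of the group that pair over their first bases were counted within each locus. Partners were found from their sequences alone, so their positions and strands within the locus are not known. After every library was thinned to 1079364 reads, 38.7% and 40.9% of the input reads and 46.3% and 45.1% of the IP reads had a partner of the same locus with an overlap of 10 bases. An overlap of 9 bases was found for 26.2% and 32.01% of the input reads and 36.5% and 36.97% of the IP reads, and one of 11 bases for 5.58% and 6.86% against 12.1% and 11.98%. The share at 10 bases was the highest of the 5 overlaps from 8 to 12 in each library, and each IP was above each input (exact permutation p = 0.33). Without thinning the share at 10 bases was 38.7% and 41.7% in the inputs and 57.5% and 56.5% in the IPs, so it moves with depth. Thinning made the listed reads equal, but not the reads of the group, which were 9.47% of them in the inputs and 12.1% in the IPs. The part of this in the thinned difference was not tested. In the left-out clusters the thinned share at 10 bases was 35.1% ± 1.999 and 32.8% ± 0.138, below that at 8 bases, 44.7% ± 1.22 and 49.6% ± 2.68. Those 10 clusters held 64.5% of the listed reads in the inputs and 69.2% in the IPs, so they had far more reads per locus. The part of reads per locus in this contrast was not tested. Autosomal loci under 10 kb, like the loci of the group, had their highest thinned share at 10 bases in each library. It was 29.6% ± 2.31 in the inputs and 36.9% ± 0.530 in the IPs, again with each IP above each input.

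Partners were far rarer among single-locus reads. With single-locus reads only, 3.04% and 4.27% of the thinned input reads of the group and 6.94% and 4.30% of the IP reads had such a partner. The share at 9 bases was 3.03% and 2.17% in the inputs and 6.91% and 3.96% in the IPs, close to the share at 10 bases in each library but input 2. Single-locus reads are also fewer, and the part of their number in these shares was not tested. The printed chr25 pair is an example of partners whose reads are listed at 1 locus alone.

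**Figure D5:**
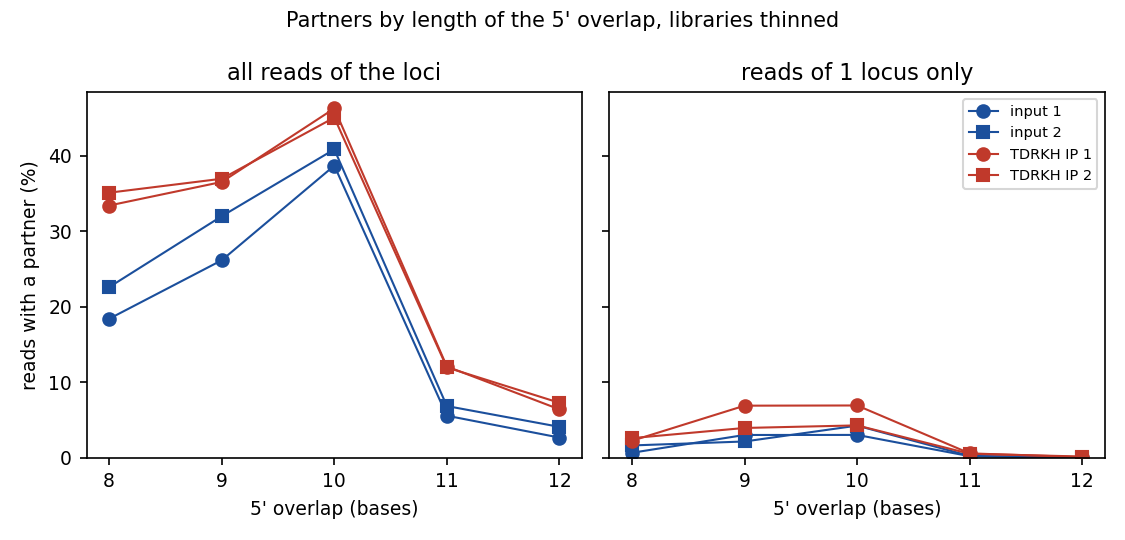
Share of reads (%) in the 290 loci that have a partner in the same locus and library, for 5′ overlaps of 8 to 12 bases, with every library thinned to 1079364 reads, for all reads (left) and reads listed at 1 locus (right). In the left panel each library is highest at 10 bases, between 38.7% and 46.3%; in the right panel no share exceeds 6.94%.

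Single sequences showed how unevenly the loci were filled. Over the 116 loci with at least 1000 single-locus reads, the leading sequence made up 1.28% to 89.6% of them, with a median of 7.65%. At chr15:15793005-15806951, TctttgcgaCcctgtggactatagct alone made up 73.8% of the single-locus reads. It stood at 719 and 948 RPM in the inputs and 1021 and 964 RPM in the IPs, with each IP just above each input (0.25 ± 0.21, adjusted p = 0.299), and it passed without input 2 (0.46, adjusted p = 0.0358). It differs from the shared T partner at 5 of 26 bases. The leading single-locus sequence of chr10:16615000-16701012 made up 3.19% of the single-locus reads there and was at 29.6 and 34.0 RPM in the inputs and 80.2 and 95.9 RPM in the IPs (1.46 ± 0.30, adjusted p = 0.000123), and it did not pass with DESeq2's own size factors (0.82, adjusted p = 0.0608). The leading sequence of chr2:92683022-92703989 was at 183 and 242 RPM against 196 and 178 RPM, with overlapping groups (-0.18 ± 0.24, adjusted p = 0.495), and it fell with TMM factors (-0.86, adjusted p = 0.00197).

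Of the distinct sequences with at least 10 RPM in 2 libraries, 2621 belonged to the group, 1350 of which rose and 155 of which fell (median log2 change 0.87). The background over all 11786 sequences tested was 41.9% risen and 19.9% fallen (median 0.70). A sequence could pass this filter through the group in which it was high. These counts, and the lengths and first bases below, thus describe only the sequences that passed. The lengths and first bases were not counted over all 11786 sequences tested, so they are not shown to be particular to the group. With TMM factors 187 rose and 217 fell, and without TDRKH IP 2 or TDRKH IP 1 the number that rose was 333 or 502. Of the sequences that rose 21.3% were of 22 nt or less and of those that fell 5.81%, against 13.7% of those not past the threshold. A first T was found in 90.3% of the sequences that rose, 84.5% of those that fell and 94.1% of those not past it. The sequences with the largest rises had 0 to 2 reads in the inputs, and the largest of them, TattttcttGggctctaaaattactg, had 0 and 1 reads in the inputs and 145 and 149 in the IPs. It was listed at 3 loci, 1 of them in the group and 1 a left-out cluster. It met the filter only through the IPs, so a rise was built into its entry.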

How the data were processed

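Per the labels, RNA of germinal vesicle oocytes was extracted with TRIZOL; the library kit was NEXTflex Small RNA-Seq V3, read single-end on a NextSeq instrument. The authors deposited, per library, a unitas table of sequences with raw read counts and annotation names; trimming, mapping settings and genome build: not given in the sources used here. Reads include PCR copies.

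Cluster names overlapping by 1 bp were merged into loci, a row's reads were divided equally among its loci, and sums were rounded. TDRKH IP and input (2 libraries each) were compared with edgeR 4.0.16 (R 4.3.3): quasi-likelihood test, filterByExpr, listed reads as library size, Benjamini-Hochberg adjustment over all loci (935) or all sequences with at least 10 RPM in 2 libraries (11786), threshold 0.05. The standard error was derived from the change and its F statistic. Shares were compared by exact two-sided permutation tests. Thinning drew 1079364 reads per library once. The tests were tested on simulated data.

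Named loci were the 10 with the most reads, the 5 largest called changes in each direction where the groups do not overlap, the 3 longest and the 2 on each side of the length threshold; named sequences were leading single-locus sequences, largest called changes and the pair with the most reads. Not all of the named sequences are printed. Members, lists and rules were chosen with earlier results of these data known. Alternatives were TMM factors, DESeq2 1.42.0, other library sizes and filters, read subsets, the replicate number as a block and leaving out each library; mismatch-free names, single-locus reads with cluster reads as library size, and thinning were chosen after seeing the data.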

Additional observations from a re-analysis of the deposited data

How the results depend on the processing

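The count of loci that rose (211) moved to 15 with TMM factors, 9 with DESeq2's own size factors, 50 with single-locus reads and 33 with these and cluster reads as library size. The count that fell (7) moved to 15, 14, 23 and 31 under the same settings, to 12 with cluster reads and 0 with microRNA reads as library size, to 4 with DESeq2 on listed reads and with reads of 24 to 32 nt, and to 3 with mismatch-free names. Leaving out each library gave 182 to 206 risen and 5 to 10 fallen. Sequences that rose (1350) moved to 187 with TMM factors, 61 with DESeq2's own size factors and 156 with single-locus sequences (fewer are tested). Those that fell (155) moved to 11 with single-locus sequences and 492 at 5 RPM. Leaving out each library gave 333 to 1318 risen and 135 to 153 fallen. The replicate number as a block gave 215 loci risen and 9 fallen; deviations of same-numbered libraries had a correlation of 0.17 over 935 loci, and with 2 pairs the numbers do not establish a pairing. With the block chr15:15793005-15806951 passed (0.13, adjusted p = 0.0469), and none of the other 23 named loci of the group, nor the 8 sequences run with the block, changed its call.

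The difference in share of listed reads (2.61 percentage points) kept its sign in every setting run. The differences in first base T and in A at base 10 turned when each sequence was counted once (-3.53 and -5.11 percentage points) and without mismatched names (-1.08 and -1.31). A at base 10 (0.0746) also ran from -0.359 upward when single libraries were left out, with a highest value of 0.509. A at base 10 without a first T was -3.31 with each sequence once, and mean length 0.0595 nt longer with single-locus reads.

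Log2 changes of named loci that reversed were as follows. With TMM factors and DESeq2's size factors: chr24:43000041 -0.037 and -0.041, chr8:81512069 -0.037 and -0.041, chr2:92683022 -0.34 and -0.35, chr15:15793005 -0.24 and -0.24, chr8:17572022 -0.20 and -0.20. With cluster reads as library size: chr2:92683022 -0.11, chr15:15793005 -0.0092. With each sequence once: chr2:92683022 -0.16, chr15:15793005 -0.11, chr10:16741000 0.97, chr14:4167520 0.69, chr3:94037366 0.22. With reads of 24 to 32 nt: chr2:92683022 -0.059, chr10:16741000 1.15. Without mismatched names: chr10:16741000 1.15, chr3:94037366 0.91, chr25:20655 0.88, chr13:11350034 0.23. With single-locus reads: chr2:92683022 -0.40, chr25:28792054 -0.54, chr7:20694021 -0.60; with cluster reads as library size too -0.54, -0.67 and -0.74, chr24:43000041 -0.080 and chr15:15793005 -0.0056. With microRNA reads all 5 named falls turned (3.67 to 4.29: 3.67, 3.89, 4.06, 4.21 and 4.28). Leaving out single libraries, chr2:92683022 ran from -0.0017 to 0.041, and its leading sequence from -0.37 to 0.035. Of the sequences, that of chr15:15793005 was -0.42 with TMM factors and -0.40 with DESeq2's size factors, and the shared T partner -0.42 and -0.40. The cause was not tested in any of these.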
